A study of Mus musculus with 2 samples.

Results

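The 6 conventional actin genes and the 4 alpha-actinin genes of the mouse were followed through the heart at embryonic day 11.5. Members were taken by gene symbol (Actc1, Acta1, Acta2, Actg2, Actb, Actg1, Actn1, Actn2, Actn3 and Actn4), through the gene identifiers in the deposited tables, and all 10 were found among 43346 mouse genes. The study sequenced total RNA of B6NCrl embryo hearts in 2 libraries of a single group, replicate 1 and replicate 2, each a pool of male and female embryos with no genetic change or treatment named. Replicate 1 came from 109 embryos, and no number is given for replicate 2. The mirVana kit was used for extraction, 10 ng of RNA entered each library, spike-in RNA was added, and a SmartSeq protocol is linked in the labels. The pools are recorded as separate biosamples under 1 donor identifier, so the SD between them is biological only as far as the labels say so.

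Actin assembles into the thin filaments of sarcomeres and into the cortex and stress fibres of all cells. Vertebrates make striated muscle forms (Actc1, Acta1), smooth muscle forms (Acta2, Actg2) and cytoplasmic forms (Actb, Actg1) from separate genes that code for nearly the same protein. Alpha-actinins are antiparallel dimers that crosslink these filaments, at Z-discs in striated muscle (Actn2, Actn3) and at adhesions and along stress fibres elsewhere (Actn1, Actn4). Developing cardiac muscle is known to make cardiac, skeletal and smooth muscle actin together.

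The coding sequences show how close the members are to each other. The first 90 coding bases of the most abundant transcript of each actin are given below from GENCODE M21 transcripts (GRCm38), with bases that differ from Actc1 in an alignment with gaps in capitals. All 10 genes lie on the minus strand. The actin genes are Actc1 on chromosome 2 (114047282 to 114053548), Acta1 on chromosome 8 (123891769 to 123894751), Acta2 on chromosome 19 (34241090 to 34255590), Actg2 on chromosome 6 (83512905 to 83536265), Actb on chromosome 5 (142903115 to 142906754) and Actg1 on chromosome 11 (120345690 to 120348542) on mm10.
Actc1: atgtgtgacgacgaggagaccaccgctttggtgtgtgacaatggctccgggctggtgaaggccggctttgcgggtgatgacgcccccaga
Acta1: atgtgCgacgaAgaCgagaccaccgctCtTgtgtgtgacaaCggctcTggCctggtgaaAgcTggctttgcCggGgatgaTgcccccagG
Acta2: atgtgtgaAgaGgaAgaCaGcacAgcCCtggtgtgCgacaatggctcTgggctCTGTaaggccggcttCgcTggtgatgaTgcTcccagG
Actg2: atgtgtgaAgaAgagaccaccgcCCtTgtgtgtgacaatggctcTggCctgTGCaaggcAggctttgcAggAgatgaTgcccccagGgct
Actb: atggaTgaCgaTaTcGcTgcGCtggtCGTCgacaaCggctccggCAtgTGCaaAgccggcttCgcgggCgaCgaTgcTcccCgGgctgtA
Actg1: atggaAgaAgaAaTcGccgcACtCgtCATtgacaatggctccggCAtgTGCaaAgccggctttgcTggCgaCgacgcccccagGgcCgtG
Acta1 differed from Actc1 at 14 of these bases, Actg2 at 15, Acta2 at 19, Actg1 at 23 and Actb at 27. Over the whole coding sequence, Actc1 and Acta1 differed at 155 of 1131 bases, of which 148 (95.5%) were the last base of a codon. Actb and Actg1 were the closest pair at 88.62% identity, with 128 differing bases, 120 of them (93.8%) at the last codon position. The longest stretch identical between any 2 actins was 77 bases, between Acta1 and Actb, against 29 bases between Actc1 and Acta1. No member shared an exact stretch of 100 bases with another member.

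Levels are in TPM, the length-corrected transcript abundance that the authors deposited, as mean ± SD over the 2 libraries (n = 2). With 2 libraries of 1 group an exact two-sided sign-flip test cannot give a p below 0.5, so no p is given. A pair of members was called apart when the same gene was higher in both libraries and the mean log2 TPM ratio exceeded 0.76 (1.69-fold). That bound is the 95th percentile of the absolute log2 difference between the libraries over 13818 genes with a mean of 1 TPM or more. Mouse genes held 34447169 expected counts in replicate 1 and 25261719 in replicate 2. The heart label was matched by cardiomyocyte markers, of which 10 of 10 stood at 1 TPM or more in both libraries, with a median of 1410 TPM. The highest were Myl7 at 5787 ± 381, Myl2 at 5027 ± 50.8 and Nppa at 4229 ± 264 TPM, and the lowest was Ryr2 at 17.07 ± 3.32 TPM. Over all protein-coding genes 56.4% stood at that level, and of the other cell types looked for every marker of the following lists did. The 8 endothelial and endocardial markers had a median of 30.6 TPM, from Emcn (51.24 ± 4.3), Tek (46.72 ± 7.69) and Pecam1 (41.98 ± 5.23) down to Npr3 (8.58 ± 0.919). The 8 epicardial and mesenchymal markers had a median of 69.0 TPM, from Col3a1 (276.0 ± 49.2), Col1a1 (105.4 ± 15.0) and Postn (100.9 ± 5.74) down to Pdgfra (22.16 ± 5.31). The 6 erythroid markers had a median of 3110 TPM. The median of the 6 liver markers differed between the libraries, at 17.7 TPM in replicate 1 and 3.31 in replicate 2, with Afp at 59.19 ± 60.7, Trf at 51.55 ± 23.3, Apoa1 at 13.02 ± 12.4 and Serpina1a lowest at 2.255 ± 1.51.

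Together the 6 actins held 1.774% ± 0.0226 of all counts in mouse genes, and the 4 alpha-actinins held 0.1981% ± 0.0243. Summed actin TPM was 14406.7 in replicate 1 and 14776.5 in replicate 2, and summed alpha-actinin TPM was 764.47 and 942.02. There were thus 18.85 actin transcripts per alpha-actinin transcript in replicate 1 and 15.69 in replicate 2. The ratio was of similar size for the striated forms taken alone, Actc1 with Acta1 over Actn2, at 16.5 and 13.75. For the cytoplasmic actins over Actn1 with Actn4 it was 20.16 and 16.56. Replicate 2 was lower in each of these ratios. In bulk RNA, fewer cells of a type and less RNA per cell cannot be told apart.

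**Figure D1:**
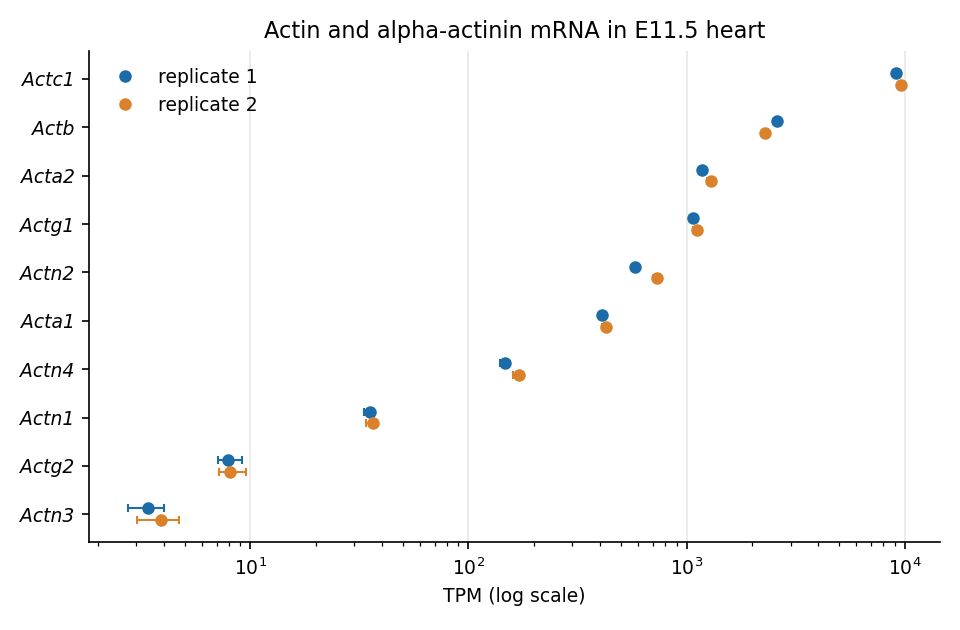
TPM of each member (log axis) in replicate 1 (blue) and replicate 2 (orange), with bars for the interval the authors deposited around the posterior mean. The members run from Actc1, above 9000 TPM in both libraries, down to Actn3, under 4 TPM.

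Striated muscle actins came first. Actc1, the alpha actin of the cardiac thin filament, stood at 9151.51 TPM in replicate 1 and 9632.52 in replicate 2, rank 3 of 21474 protein-coding genes. It made up 63.52% of actin TPM in replicate 1 and 65.19% in replicate 2 (64.36% ± 1.18). Nearly all of it was the transcript Actc1-201, at 99.97% and 99.98%. Acta1, the actin of adult skeletal muscle, stood at 409.35 and 429.29 TPM (419.3 ± 14.1), rank 251. It held 2.873% ± 0.0453 of actin TPM, and the ratio of Actc1 to it was 22.4-fold in each library. Acta1 exceeded Actn4, the next member below it, by 2.66-fold (log2 ratio 1.41 ± 0.104), which passed the bound. Without length correction, as CPM (a gene's count scaled to the library's total in mouse genes), the log2 ratio was 0.39 and did not pass.

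Skeletal muscle, which also makes Acta1, was looked for through its markers. Of 16 such genes, 6 reached 1 TPM in both libraries, against 56.4% of all protein-coding genes, and the list median was 0.6 TPM. Their summed TPM was 87.59 in replicate 1 and 88.12 in replicate 2. The highest was Tnni2, the fast troponin I, at 34.62 ± 3.48 TPM, then Mylpf at 21.94 ± 5.31 and Tnnt3 at 11.96 ± 0.191. Also detected were Ckm at 7.395 ± 1.03 TPM, Mybpc1 at 5.94 ± 1.51 and the myogenic factor Myog at 2.915 ± 0.247. The determination factor Myod1 stood at 0.895 ± 0.346 TPM. The myosin genes Myh2 and Myh4 and the factor Myf6 had no count in either library. The limit for 0 counts, 3 counts, was 0.0871 CPM in replicate 1 and 0.119 in replicate 2, for counting error only. The part of skeletal muscle cells in the Acta1 level was not tested.

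Smooth muscle actins differed widely from each other. Acta2, the aortic smooth muscle alpha actin, stood at 1177.27 TPM in replicate 1 and 1290.0 in replicate 2 (1234 ± 79.7), rank 56 and 8.451% ± 0.395 of actin TPM. It was 2.94-fold above Acta1 (log2 ratio 1.56 ± 0.0448). Actg2, the enteric smooth muscle gamma actin, stood at 7.9 and 8.03 TPM (7.965 ± 0.0919), rank 8382, from 268 and 199 counts. Acta2 was 155-fold above it (log2 ratio 7.27 ± 0.0766), and the libraries differed little in that ratio, at 149-fold and 161-fold.

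Smooth muscle markers other than actins stood far below Acta2. All 10 reached 1 TPM in both libraries, with a median of 22.0 TPM and a range from 1.15 to 223.1. Tagln, which binds actin in smooth muscle and in the early heart, was highest at 223.1 ± 15.8 TPM, followed by Cnn1 at 177.9 ± 23.6 and Cald1 at 109.5 ± 9.36. Myh11, the smooth muscle myosin heavy chain, was lowest at 1.15 ± 0.212 TPM. The share of Acta2 from each cell type was not tested.

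Of the cytoplasmic actins, Actb came next after Actc1 in level. Actb, the beta actin of every cell's cortex, stood at 2592.07 TPM in replicate 1 and 2299.71 in replicate 2 (2446 ± 207), rank 24 and 16.77% ± 1.72 of actin TPM. Actg1, the gamma form, stood at 1068.6 and 1116.93 TPM (1093 ± 34.2), rank 71 and 7.488% ± 0.1. The Actb to Actg1 ratio was 2.43 in replicate 1 and 2.06 in replicate 2, a mean of 2.23-fold, which passed the bound. Both together held 24.27% ± 1.62 of actin TPM. Actb was the only member with a higher TPM in replicate 1. All 6 erythroid markers, led by Hbb-y at 27100 ± 3140, Hba-x at 8288 ± 1460 and Hbb-bh1 at 6081 ± 475 TPM, with Klf1 lowest at 41.78 ± 8.31, were also higher there (median log2 ratio 0.24), and so were all 6 liver markers (median 1.92). Of genes at 1 TPM or more 42.2% were higher in replicate 1. The part of these cells in the Actb difference was not tested.

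The alpha-actinin genes are Actn2 on chromosome 13 (12269426 to 12340760), Actn3 on chromosome 19 (4861216 to 4877909), Actn1 on chromosome 12 (80167547 to 80260371) and Actn4 on chromosome 7 (28893248 to 28962340). Actn2, the Z-disc form of heart and skeletal muscle, stood at 579.46 TPM in replicate 1 and 731.81 in replicate 2 (655.6 ± 108), rank 151. It made up 76.75% ± 1.34 of alpha-actinin TPM. Actn3, the form of fast skeletal fibres, stood at 3.39 and 3.88 TPM (3.635 ± 0.346), rank 10347, from 187 and 146 counts. Actn2 exceeded Actn3 by 171-fold and 189-fold, and the mean log2 ratio was 8.09 on CPM. The striated muscle actinins were thus split more unevenly than the striated actins, Actc1 and Acta1, in both libraries (log2 ratio 7.49 ± 0.1 against 4.49 ± 0.00374).

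Of the nonmuscle forms, Actn4 was the more abundant. It stood at 146.35 TPM in replicate 1 and 169.88 in replicate 2 (158.1 ± 16.6), rank 746 and 18.59% ± 0.785 of alpha-actinin TPM. Actn1 stood at 35.27 and 36.45 TPM (35.86 ± 0.834), rank 3364 and 4.242% ± 0.527. Actn4 was 4.4-fold above Actn1, past the bound. Actn1 and Actn4 together held 22.83% ± 1.32 of alpha-actinin TPM, beside 24.27% of actin TPM in the cytoplasmic actins.

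**Figure D2:**
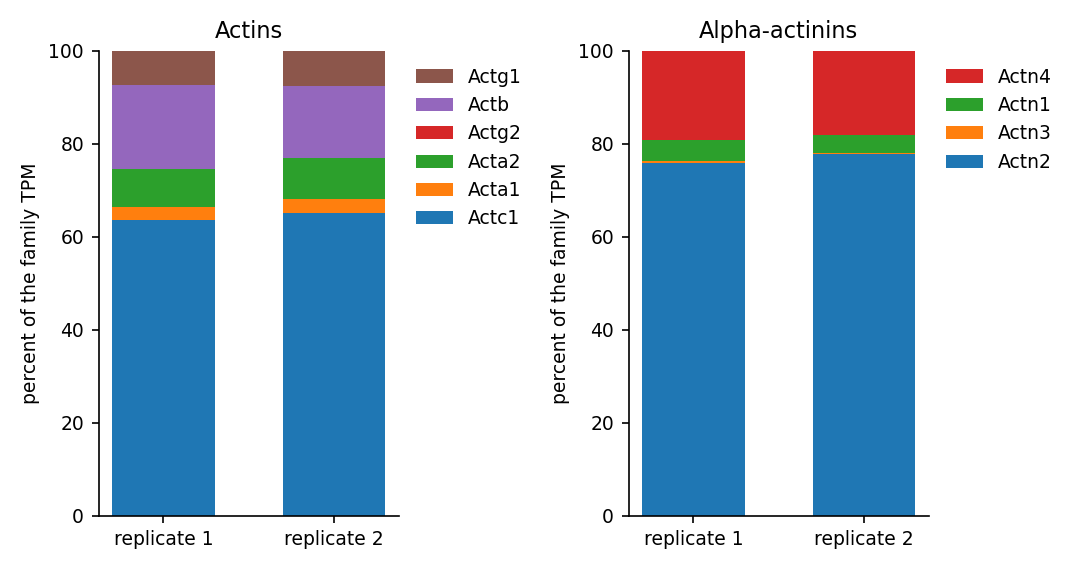
Percent of the summed TPM of the 6 actins (left) and the 4 alpha-actinins (right) in each member, per library. Actc1 took 63.52% and 65.19% of actin TPM, and Actn2 took the largest share of alpha-actinin TPM in both libraries.

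In order of mean TPM the members ran Actc1, Actb, Acta2, Actg1, Actn2, Acta1, Actn4, Actn1, Actg2 and Actn3. Of the 9 neighbouring pairs, 6 were apart by the bound, from Actb over Acta2 (1.98-fold, 2.2 and 1.78 in the libraries) to Actn1 over Actg2 (4.5-fold). The top step, Actc1 over Actb, was 3.85-fold. On CPM, where long transcripts weigh more, Acta1 over Actn4 (log2 ratio 0.39) and Actg2 over Actn3 (0.48) were not apart, and Actn1 over Actg2 had a log2 ratio of 3.58 against 2.17 in TPM. Not apart in TPM were Acta2 over Actg1 (1.13-fold), Actg1 over Actn2 (1.68-fold) and Actn2 over Acta1 (1.55-fold; apart on CPM, with a log2 ratio of 1.75), although each had the same gene higher in both libraries. The order of Actg1 and Actn2 rests on the correction for length: as CPM they did not differ, with a log2 ratio of 0.0. Against the smaller spread of 1284 genes at 100 TPM or more (95th percentile 0.35 in log2, or 1.27-fold), a bound chosen after the values were seen, 8 of the 9 pairs were apart, all but Acta2 over Actg1.

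Between the libraries no member differed 1.5-fold or more in TPM. The share of the 13818 genes at 1 TPM or more that did was 8.75%, under 1 gene in 10, so the absence of such a member is close to the background. The median absolute log2 difference of those genes was 0.17, which 4 of the 10 members (Actn2, Actn4, Actn3 and Actb) exceeded. Among genes at 100 TPM or more that median was 0.09, which 4 of the 7 members at that level (Actn2, Actn4, Actb and Acta2) exceeded. Actn2 had the widest gap, 1.26-fold, with a log2 ratio of replicate 1 to replicate 2 of −0.34 in TPM and −0.29 in CPM. The deposited intervals of Actn2 did not overlap, at 562.5 to 573.3 in replicate 1 and 704.7 to 718.6 in replicate 2, around posterior means of 567.89 and 711.61 TPM. This was not particular to Actn2, since the intervals of all 7 members at 100 TPM or more did not overlap. Among them was Actg1, which differed only 1.05-fold (1039 to 1058 in replicate 1 and 1075 to 1099 in replicate 2). Of genes at 100 TPM or more, 5.22% differed by more than Actn2.

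Actn4 at −0.22 and Actn3 at −0.19 came next in log2 TPM ratio, and Actb at 0.17 was the only one above 0. The other 6 members lay between −0.13 and −0.02. In TPM 9 of the 10 members were lower in replicate 1, as were 57.5% of genes at 1 TPM or more and 60.7% of those at 100 TPM or more. In CPM 8 were lower, with Actn1 at 0.04 and Actb at 0.23. Against this, 51.0% of genes at 1 TPM or more and 46.0% of those at 100 TPM or more were lower. After TPM was rescaled over nuclear protein-coding genes other than globins 8 were lower, with Actg2 (0.02) and Actb (0.21) higher. On that scale 50.3% of genes at 1 TPM or more and 47.6% of those at 100 TPM or more were lower. Over all genes the median log2 TPM ratio was −0.04. Of the cardiomyocyte markers 8 of 10 were lower in replicate 1 in TPM, with a median of −0.06 and a range from −0.51 (Myh6) to 0.4 (Ryr2). The part of cell makeup in the Actn2 difference was not tested.

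**Figure D3:**
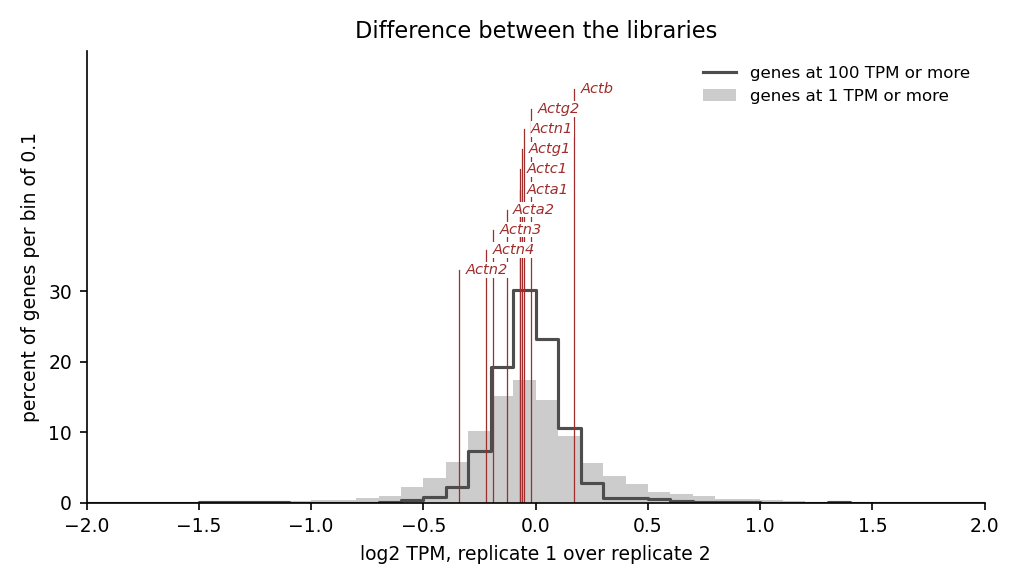
Log2 ratio of TPM, replicate 1 over replicate 2, as percent of genes per bin for genes at 1 TPM or more (grey bars) and at 100 TPM or more (dark line), with the 10 members as red lines whose heights only separate the names. The members lie between −0.34 (Actn2) and 0.17 (Actb), with Actn2 toward the lower edge of the genes at 100 TPM or more.

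Transcript forms added detail that gene totals hide. Actn1 has alternative versions of exon 19, each coding for a piece of the first EF-hand region: an 81-base nonmuscle version in Actn1-201 that keeps calcium sensitivity, and a 66-base smooth muscle version in Actn1-202. They lie on chromosome 12 of mm10, minus strand, at 80170686 to 80170766 and 80170183 to 80170248. Capitals mark bases that differ or have no partner in the alignment of the pair, which was identical at 42 of 81 columns (51.9%).
Actn1-201 exon 19: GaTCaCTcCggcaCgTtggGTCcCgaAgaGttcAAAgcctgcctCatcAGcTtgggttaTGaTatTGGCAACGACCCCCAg
Actn1-202 exon 19: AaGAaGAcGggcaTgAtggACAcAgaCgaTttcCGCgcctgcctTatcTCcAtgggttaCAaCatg
The nonmuscle version was carried by 21.97 TPM in replicate 1 and 20.61 in replicate 2, and the smooth muscle version by 13.3 and 15.84 TPM. The smooth muscle version thus made up 37.7% and 43.5% of Actn1 (40.6% ± 4.06). The nonmuscle version was higher in both libraries, but by 1.47-fold, under the bound. That bound was drawn from gene totals, and the spread of single transcripts between the libraries may differ from it. Actn1-202 is annotated with 2661 coding bases of 2664 in all, so reads from untranslated ends count for Actn1-201 alone in the model that shares them out.

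Actn4 showed a comparable choice further upstream. Exon 8 has versions of equal length, 86 bases, at 28911490 to 28911575 (Actn4-201) and 28909903 to 28909988 (Actn4-202) on chromosome 7 of mm10, minus strand. They were identical at 65 bases (75.6%) and differed at 21, shown in capitals.
Actn4-201 exon 8: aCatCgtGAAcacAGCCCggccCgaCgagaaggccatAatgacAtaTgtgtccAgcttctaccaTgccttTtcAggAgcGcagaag
Actn4-202 exon 8: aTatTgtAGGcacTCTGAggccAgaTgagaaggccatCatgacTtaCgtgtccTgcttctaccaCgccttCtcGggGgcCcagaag
Transcripts with the version of Actn4-201 came to 69.49 TPM in replicate 1 and 75.29 in replicate 2. Those with the version of Actn4-202 came to 31.54 and 41.45 TPM. The latter made up 31.2% and 35.5% of both (33.4% ± 3.03), and the 2.0-fold gap (log2 ratio 1.0 ± 0.197) passed the bound. Here too the bound came from gene totals and not from transcripts. Actn4-202 is annotated with 13 exons and ends early, while Actn4-201 has 21, so the estimate draws on more than these exons. A further 25.07% and 27.39% of Actn4 was assigned to the form Actn4-206 with 14 exons and no annotated reading frame, which lacks the first 8 exons of Actn4-201. In all, 30.9% ± 0.212 of Actn4 TPM was in forms with no reading frame annotated as coding.

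The other members split by their ends or by retained introns. Actg1 was divided between Actg1-202 (49.31% and 51.67%) and Actg1-204 (43.6% and 40.65%), which share all 1125 coding bases and differ in that Actg1-204 lacks the noncoding first exon. The form Actg1-206 held 1.19% in each library and is annotated as a target of nonsense-mediated decay, with an extra exon of 45 bases (chromosome 11, 120347492 to 120347536). Retained-intron forms of Actg1 held 3.73% and 3.15% (Actg1-207) and 1.5% and 2.5% (Actg1-209). Actn2 was 84.62% and 86.88% Actn2-201, and Actn2-203 held 13.75% and 12.4%. Actn2-203 has the same 2682 coding bases, with an intron inside what is the first exon of Actn2-201. Its deposited intervals were wide, at 24.9 to 104 TPM in replicate 1 and 42.6 to 123 in replicate 2. Actb was 97.82% and 97.83% Actb-201, and Acta1 and Acta2 had 1 transcript each in the tables.

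The members with the lowest levels were divided as well. Actn3 was shared between the coding Actn3-201 (55.36% and 51.98%) and the retained-intron form Actn3-202 (44.64% and 48.02%). Thus 46.3% ± 2.39 of its TPM was assigned to a form with no full reading frame. Actn3-202 rests on only 38.11 and 33.11 counts, with deposited intervals of 0.833 to 2.18 and 1.01 to 2.74 TPM. The full-length coding form alone stood at 1.88 and 2.01 TPM. Actg2 was 75.78% Actg2-202 in replicate 1 and 93.24% Actg2-201 in replicate 2. These 2 transcripts have the same 1128 coding bases and differ mainly in a noncoding first exon. The deposited intervals of Actg2-201 overlapped between the libraries (0.655 to 5.6 and 3.4 to 8.08 TPM). Those of Actg2-202 did as well (1.51 to 6.94 and 0.000158 to 4.07 TPM). Yet each library's own TPM, 1.91 and 7.49 for Actg2-201 and 5.99 and 0.54 for Actg2-202, lay outside the interval of the other library. The difference was not tested.

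**Figure D4:**
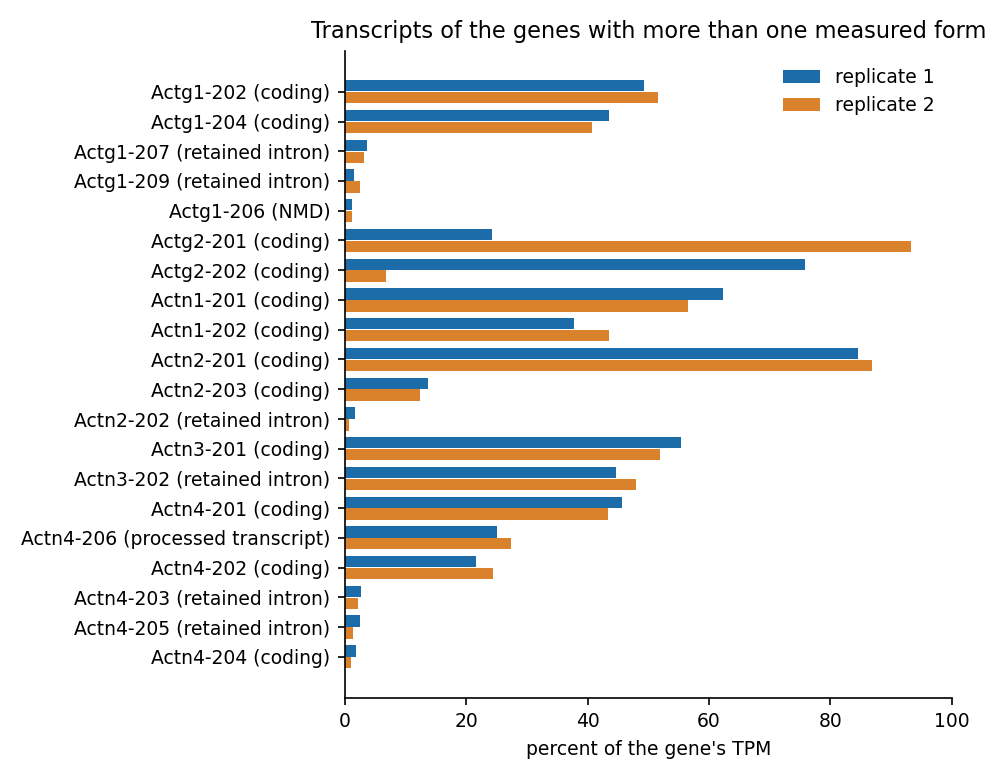
Percent of a gene's TPM in each transcript that reached a mean of 1%, for 6 members, in replicate 1 (blue) and replicate 2 (orange); Actb, whose second transcript held 1.17%, and the 3 members with a single form at that level are not drawn. The libraries stand close for all but Actg2, whose main transcript differs between them.

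Exact stretches of 100 bases shared with another gene, counted on either strand, were found for 4 of the 10 members, and stretches of 50 bases for 8. Of all 100-base stretches of Actg1-202, 51.1% were also found in a transcript of another gene, all of them processed pseudogenes. The highest of those measured was Gm12715, with 88.52 and 104.74 counts, then Gm8399 with 31.62 and 37.31 and Actg-ps1 with 5.56 and 3.5. Actg1 had 52557.38 and 38678.22 counts. The pseudogenes Gm6375, Gm8543 and Gm16385 also shared stretches with it but were not among the measured genes, so no counts can be given for them. Actb shared 1.1% of its stretches with Lrrc58 and the pseudogene Gm15725, which had 187.67 counts in replicate 1 and 0 in replicate 2. Actn4 shared 5.74% with Capn12, whose exons overlap those of Actn4 on the opposite strand by 316 bases and which stood at 0.16 and 0.1 TPM. Actn1 shared 7.26% with the antisense gene Gm47766, whose exons overlap its own by 363 bases. Another antisense gene, Gm47767, overlaps Actn1 by 88 bases, and neither was analysed here. The microRNA genes Gm23419 and Mir6935 lie within exons of Actg1, over 83 and 64 bases, and were listed at 0 TPM. The strand setting of the counting is not given in the sources used here, so reads of Actn4 and Capn12 in that overlap cannot be told apart. Actc1, Acta1, Acta2, Actg2, Actn2 and Actn3 shared no stretch of 100 bases, and at 50 bases Actc1 and Actg2 still shared none.

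The genes around actin filaments were described from lists, for which 56.4% of the 21474 protein-coding genes at 1 TPM or more in both libraries, and their median of 2.96 TPM, give the background. Genes that bind, sever or recycle monomers were the most abundant after folding genes by list median, at 148 TPM with 13 of 13 detected. They were led by Tmsb4x, the monomer sequestering thymosin, at 2037 ± 63.9 TPM, the severing protein Cfl1 at 1510 ± 24.0 and Tmsb10 at 1477 ± 24.1, with Cap1 lowest at 40.08 ± 0.516. Each of these top 3 was above Actg1 in both libraries. The list for actin folding and modification had the highest median of the pathway lists, 260 TPM. Of its 11 genes 10 were measured, and all 10 were detected. The chaperonin subunits Cct3 (373.6 ± 12.2), Cct5 (329.4 ± 2.83) and Tcp1 (322.1 ± 6.83) led it, and Naa80, which acetylates the actin N-terminus, was lowest at 10.27 ± 1.68 TPM.

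Filament nucleators differed by type. Genes of the Arp2/3 complex and its activators, which build branched networks, were detected in 13 of 13 cases with a median of 61.6 TPM. Arpc2 at 294.0 ± 13.5, Actr3 at 227.4 ± 16.0 and Arpc5 at 193.1 ± 6.44 TPM were highest, and the activator Wasf1 was lowest at 13.3 ± 1.58. Formins and other nucleators, which start unbranched filaments, were detected in 14 of 16 cases with a median of 3.13 TPM, near that of all protein-coding genes. Lmod2, the leiomodin of striated muscle, was highest at 36.0 ± 5.35, then Cobl at 24.7 ± 2.6 and Daam1 at 18.09 ± 1.47, and Fmn2 was lowest at 0.55 ± 0.354 TPM.

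All 8 capping genes were detected (median 91.8 TPM). Capzb at 225.3 ± 3.59 and Capza2 at 164.4 ± 15.0, subunits of the barbed-end capping protein, and Tmod1 at 154.1 ± 7.0, the pointed-end cap of sarcomeres, were highest, and Tmod2 was lowest at 4.305 ± 0.148 TPM. Of 12 crosslinkers other than the alpha-actinins, 11 were detected (median 65.5 TPM). Flna (143.6 ± 25.0), Fscn1 (132.8 ± 4.34) and Palld (131.5 ± 17.5) led them, each below Actn4 and far below Actn2 in mean TPM, and Espn was lowest at 0.79 ± 0.198.

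Of 16 partners of alpha-actinin at Z-discs and adhesions, 15 were detected (median 116 TPM). Csrp3, the muscle LIM protein, was highest at 1044 ± 21.8 TPM, above Actn2 in both libraries, followed by Pdlim7 at 327.5 ± 7.4 and Nebl, the cardiac nebulette, at 315.4 ± 27.1. Myot was lowest, with 3 counts in replicate 1 and 0 in replicate 2. Of the 15 detected partners 12 were lower in replicate 1 in TPM, with a median log2 ratio of −0.11, where 57.5% of genes at 1 TPM or more were lower.

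Of 10 genes listed as actin gene regulators of the SRF pathway, 7 were measured. All 7 were detected, with a median of 14.9 TPM. Fhl2 stood at 135.3 ± 3.17, the cardiac and smooth muscle coactivator Myocd at 47.17 ± 1.5 and Tead1 at 21.1 ± 6.05 TPM, and Srf itself was lowest at 6.25 ± 0.891. Of 14 other actin-like genes 7 were detected, led by Actr1a (88.53 ± 10.2), Actl6a (87.02 ± 6.19) and Actr1b (65.94 ± 10.8 TPM), parts of dynactin and chromatin complexes. Another 5, Actbl2, Actl7b, Actl9, Actrt1 and Actrt2, had no count in either library, which at this depth allows up to 0.0871 and 0.119 CPM.

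**Figure D5:**
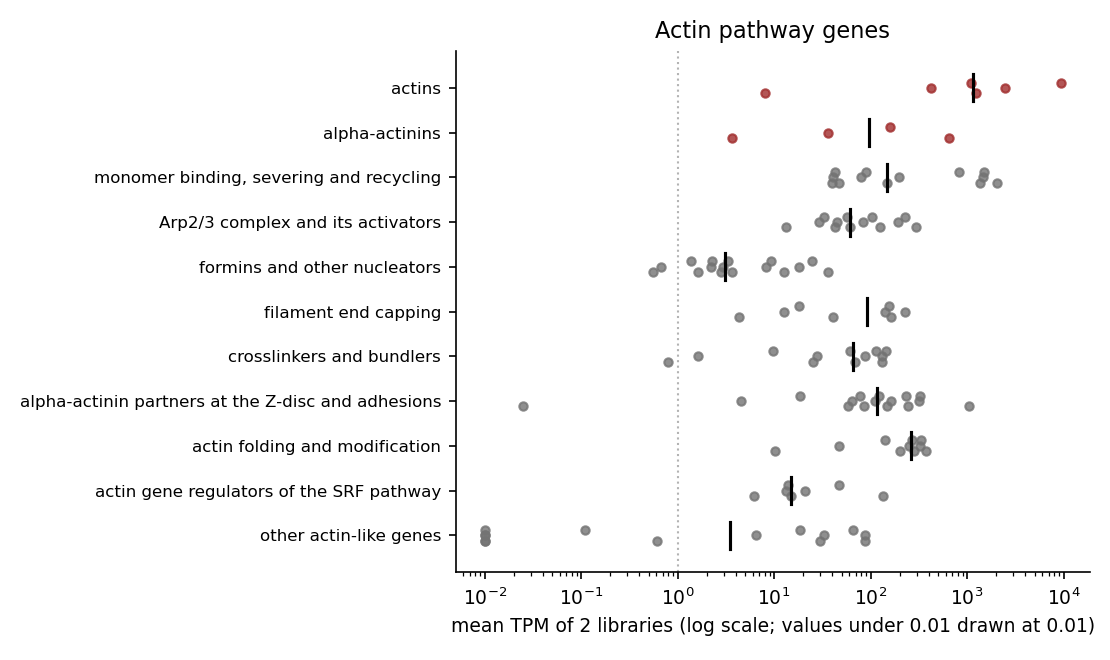
Mean TPM over the 2 libraries (log axis) of each actin and alpha-actinin (red) and of each gene in the pathway lists (grey), with the list median as a black bar and 1 TPM as a dotted line. The folding and monomer-binding lists have the highest medians of the grey lists, and the formin list lies near 3 TPM.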

How the data were processed

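Total RNA of E11.5 mouse heart was measured in 2 libraries of 1 group. Per the file headers, the authors deposited expected counts (reads as estimated for each gene and transcript), TPM, posterior means with lower and upper bounds of an interval of unstated level, and the percent of a gene's TPM in each transcript. The deposited READMEs name mm10 and annotation M4. No source used here gives the aligner or quantifier.

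Rows of tRNA and spike-in RNA were left out. Symbols, gene types, exons, coordinates and transcript sequences came from GENCODE M21 (GRCm38) by identifier, with a symbol for 42462 of 43346 genes. For Acta1, Acta2, Actn1-201, Actn3-201 and Actg2-204 the transcript length in the tables differs from that of M21. Python 3.11.15 with numpy 2.4.6, pandas 2.3.3, scipy 1.17.1, biopython 1.88 and matplotlib 3.10.9 was used, and the replicate ratio was tested on simulated data. Detected means 1 TPM or more in both libraries. CPM is the expected count over the sum of mouse genes. A share of TPM is taken over the 6 actins or the 4 alpha-actinins. Named are all members, the 3 highest and the lowest gene of each list, the 3 highest genes that share a 100-base stretch with a member, and genes with overlapping exons. Some others were named after their values were seen. These are Ckm, Mybpc1, Myog, Myod1, Myf6, Myh2, Myh4, Myh6, Gm8399, Actg-ps1, Gm6375, Gm8543, Gm16385 and the actin-like genes without counts. The members and lists were chosen with earlier results of these data known. Alternatives were posterior mean TPM, CPM, TPM rescaled over nuclear protein-coding genes other than globins, 1 added to each TPM, coding transcripts alone, other detection and fold bounds, 50-base stretches and leaving out either library. The spread of genes at 100 TPM or more and the sums over transcripts that hold each version of an exon were chosen after seeing the data.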

Additional observations from a re-analysis of the deposited data

How the results depend on the processing

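The share of actin TPM in Actc1 was 59.11% on expected counts without length correction, and that of Actn2 among alpha-actinins was 81.41% when coding transcripts alone were counted. Counts without length correction weigh short transcripts such as Actc1-201 less, and the second choice drops forms of Actn4 and Actn3. Between 5 and 8 of the 9 neighbouring pairs were apart over all settings. On CPM, Actn2 over Acta1 passed the bound (log2 ratio 1.75) and Acta1 over Actn4 (0.39) and Actg2 over Actn3 (0.48) did not. The bound was set anew on each of these scalings. It was 0.71 for posterior mean TPM, 0.64 for coding transcripts alone, 0.75 for CPM and 0.89 for rescaled TPM. Actg1 over Actn2 passed these lower bounds with posterior mean TPM (0.75, the same ratio as in TPM) and with coding transcripts alone (0.66). Against the bound of 0.76, Actg1 over Actn2 passed without replicate 2 (0.88) and Actn2 over Acta1 without replicate 1 (0.77). No member differed 1.5-fold between the libraries under any of the scalings. With detection set at 5 TPM, 6 of 10 smooth muscle, 4 of 16 skeletal muscle and 2 of 6 liver markers were detected. Of formins and other nucleators 6 of 16 were, and the other lists changed less. At 50 bases, 8 of the 10 members shared stretches with another gene. The highest shares were 56.7% for Actg1, 14.2% for Actb, 10.2% for Actn1, 7.39% for Actn4 and 2.22% for Acta1. Some of these stretches were shared with other members, among them Actn1 with Actn4. The forms of Actg2 rest on 268 and 199 counts for the gene. No paired analysis was possible because the libraries form a single group.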
